A study of Mus musculus with 6 samples.

Results

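Translation initiation factors are the proteins that bring the initiator tRNA, an mRNA and the ribosomal subunits together at a start codon. The group was taken as the genes whose symbol in the array's annotation begins with Eif1 to Eif6, leaving out the eIF2 kinases (Eif2ak). It holds 47 of the 19057 genes named on the array. After a filter on detection 11674 items, each a gene at its brightest probe or a probe without a gene name, were tested in all, and 39 of the 47 members were among them. RNA from mouse liver was read on an Illumina bead array, on which beads coated with a probe for a transcript light up as labelled cRNA binds to them. Livers came from C57Bl/6N mice aged 8 weeks that had been injected intraperitoneally. The Tuni group (3 arrays) received tunicamycin at 2.5 mg/kg, and the Ctrl group (3 arrays) the same volume of vehicle, which was DMSO diluted in PBS with 100 mM glucose. Liver was collected 12 hours later in both groups, so the comparison covers 1 dose and 1 time. The sources used here give no sex, chip or scan day, and do not say whether each array holds 1 animal. The p-values below therefore rest on the spread among 6 arrays, which may be partly technical.

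Initiation on most cellular mRNAs follows 1 route. The eIF2 complex, bound to GTP, carries the initiator tRNA to the small ribosomal subunit, where eIF1, eIF1A, eIF3 and eIF5 help it to scan for the start codon. The eIF4 factors bind the mRNA cap (eIF4E), hold the complex together (eIF4G) and unwind the leader (eIF4A with eIF4B or eIF4H), while the eIF4E-binding proteins block eIF4E. After each round eIF2B reloads eIF2 with GTP. Tunicamycin blocks N-linked glycosylation in the endoplasmic reticulum, and the stress kinase PERK then phosphorylates eIF2, which makes it an inhibitor of eIF2B and lowers protein synthesis. Phosphorylation and protein amounts were not measured here. The arrays read transcript levels alone.

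Across the tested items, which are not independent replicates, a pair of arrays correlated at r = 0.889 to 0.903 between Tuni and Ctrl, and at r = 0.989 to 0.995 within a group. The marker counts that follow stand against 31.4% of all items that fell and 31.0% that rose. Of 9 hepatocyte markers, 8 were detected and 5 of the 7 tested fell, and their summed linear intensity was 61293 to 64502 in Tuni livers and 78426 to 83152 in Ctrl livers. The probe of Alb was detected on 1 Tuni and 1 Ctrl array only. Markers of Kupffer cells and macrophages fell in 5 of 6 tested genes, with a summed intensity of 506 to 1649 in Tuni livers and 2332 to 3439 in Ctrl livers. Of that list, Vsig4 had a log2 fold change of -2.36 and Clec4f of -1.62, and 1 of the 7 markers on the array was detected on 0 of 6 arrays. In log2 intensity Vsig4 read 6.74, 7.07 and 9.36 in Tuni livers, against 10.53, 9.98 and 9.73 in Ctrl livers. Clec4f read 6.85, 7.23 and 8.31, against 9.32, 9.09 and 8.86. For both genes Tuni replicate 3 lay nearest to the Ctrl arrays. The summed endothelial markers were 2777 to 2968 in Tuni livers and 3212 to 3765 in Ctrl livers, with 2 of 5 tested genes fallen. Stellate markers summed to 2649 to 2854 in Tuni livers and 2977 to 3240 in Ctrl livers, with 2 of 4 fallen. The endothelial sum and the stellate sum each rested mostly on 1 bright gene that was not called. The endothelial and stellate counts are near the share over all items. Of the markers of other cells, 0 of 2 tested cholangiocyte genes, 1 of 1 lymphocyte gene and 1 of 2 erythroid genes fell, and 1 of 3 neutrophil genes rose. The lymphocyte gene was detected on 1 Tuni and 3 Ctrl arrays, and the risen neutrophil gene on 3 Tuni and 1 Ctrl. Each passed the detection filter through the group in which it was higher. Whether the mix of cells contributed to the values below was not tested, and in whole liver fewer cells of a type and less RNA per cell cannot be told apart.

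Transcripts of initiation factors were mostly higher after tunicamycin. Of the 39 tested members, 32 rose and 1 fell at an adjusted p below 0.05, and 6 were not called. Over all items tested, 62.5% were called, 31.0% rose and 31.4% fell. The median log2 fold change of the 39 members was 0.83, against -0.0080 over all items, and 36 of the 39 lay above the median of all items. At least 2-fold changes were reached by 16 members that rose and 1 that fell, where 11.1% of all items rose and 11.6% fell that far. The Tuni and Ctrl arrays did not overlap for 34 of the 39, against 66.7% of all items. Of the 39, 37 were detected on all 6 arrays, and Eif4e (3 Tuni, 1 Ctrl) and Eif5b (2 Tuni, 3 Ctrl) were the exceptions. Of all 11674 items 9449 were detected on all 6 arrays, and in a fit of these alone 67.3% were called. Per array, the median deviation of the members from their Ctrl mean was 0.81, 0.77 and 0.85 log2 units in Tuni livers and -0.013, 0.015 and 0.0032 in Ctrl livers. All 3 Tuni arrays lay well apart from the Ctrl arrays, by similar amounts. By complex, the median log2 fold change was 0.67 for eIF2, 0.90 for eIF2B, 0.77 for eIF3, 0.84 for eIF4, 0.20 for the eIF4E-binding proteins and 1.002 for the factors outside them. The median of the binding proteins, which is that of Eif4ebp3, was -0.18 without Ctrl replicate 1 and 0.44 without Ctrl replicate 3. Without the detection filter, which adds the undetected probes, the medians of eIF3 and eIF4 were 0.47 and 0.55.

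**Figure D1:**
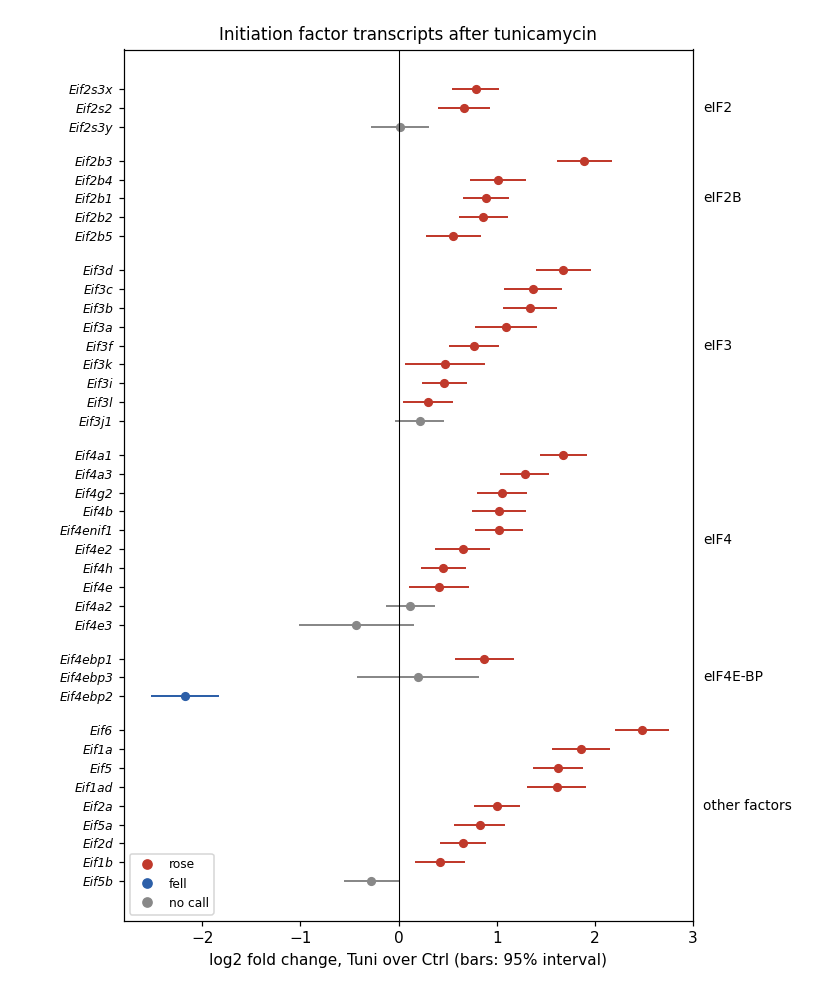
Log2 fold change of each tested initiation factor, Tuni over Ctrl, grouped by complex, with the 95% interval from limma as a bar. Of the 39 points, 32 called as risen lie right of 0 and 1, Eif4ebp2, is called as fallen, at -2.18.

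**Figure D2:**
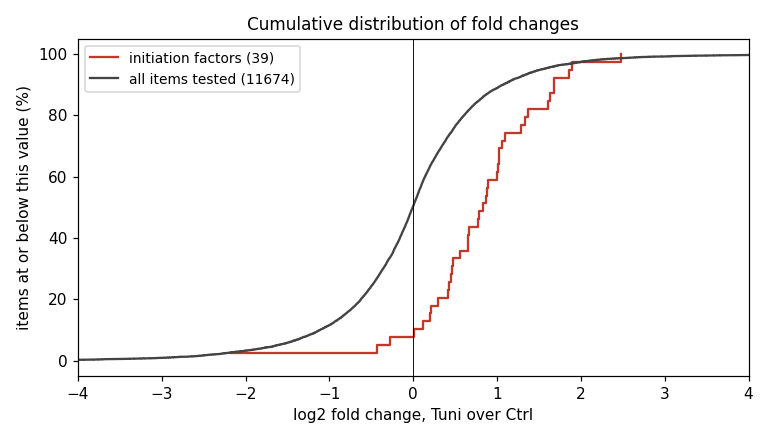
Cumulative share of items at or below each log2 fold change, for the 39 tested initiation factors and for all 11674 items tested. The curve of the initiation factors crosses 50% at 0.83, and that of all items at -0.0080.

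The 8 members without a test were not well above background on enough arrays. Probes of Eif1ax, Eif3e, Eif3m, Eif4e1b, Eif5a2 and the pseudogene Eif2s3x-ps1 were detected on 0 of 6 arrays. Eif3h was detected on 1 Tuni and 1 Ctrl array, and Eif4g3, an eIF4G scaffold, on 2 Tuni and 0 Ctrl arrays. Whether the probes bind poorly or the transcripts are scarce in liver cannot be told from these readings. The eIF2 alpha subunit (Eif2s1), Eif1, Eif3g and Eif4g1 were not analysed here.

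Among the eIF2 subunits, the beta and the X-linked gamma subunit rose. Values per array are normalized log2 intensities, in the order of the replicates, and log2 fold changes are Tuni over Ctrl. Eif2s2, the beta subunit, read 9.36, 9.20 and 9.39 in Tuni livers, against 8.81, 8.61 and 8.53 in Ctrl livers. It rose 1.59-fold (log2 fold change 0.67 ± 0.12 SE, adjusted p = 5.89e-04), and its second probe rose too. Eif2s3x, a gamma subunit, read 9.20, 9.20 and 9.38 in Tuni livers, against 8.47, 8.51 and 8.45 in Ctrl livers, a 1.72-fold rise (adjusted p = 8.78e-05). For these genes every Tuni array lay above every Ctrl array. The Y-linked counterpart Eif2s3y was detected on all 6 arrays and read 7.33, 7.60 and 7.73 in Tuni livers, against 7.41, 7.57 and 7.65 in Ctrl livers. The groups overlapped, and the log2 fold change was 0.013 ± 0.13 SE, with a 95% interval of -0.27 to 0.30 (adjusted p = 0.938). The X- and Y-linked genes are close in sequence, and a probe may bind both transcripts. Per-array medians of these 3 genes, relative to Ctrl, were 0.71, 0.55 and 0.74 in Tuni livers and -0.0096, 0.024 and -0.021 in Ctrl livers. The 3 genes cover the beta and gamma subunits only.

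All 5 subunits of eIF2B, the factor that reloads eIF2 with GTP and that phosphorylated eIF2 inhibits, rose. Over all items tested, 31.0% rose. Eif2b3, which encodes the gamma subunit of the catalytic part, had the largest change of the 5, at 3.71-fold. It read 9.37, 9.14 and 9.37 in Tuni livers, against 7.25, 7.54 and 7.40 in Ctrl livers (log2 fold change 1.89 ± 0.12 SE, adjusted p = 5.17e-07), and the groups were separated by more than 1 log2 unit. Eif2b5, the catalytic epsilon subunit, had the smallest, at 1.47-fold. It read 10.12, 10.03 and 10.09 in Tuni livers, against 9.30, 9.62 and 9.64 in Ctrl livers, with all Tuni arrays above all Ctrl arrays (adjusted p = 0.00234). Its 3 probes gave log2 fold changes of 0.56, 0.59 and 0.64. The regulatory subunits lay between. Eif2b4 (delta) rose 2.02-fold, Eif2b1 (alpha) 1.86-fold and Eif2b2 (beta) 1.82-fold. Their adjusted p-values were 4.68e-05, 2.80e-05 and 6.02e-05, and the groups did not overlap for any of the 3. The log2 fold change of Eif2b5 was lower than that of Eif2b1 by 0.34 ± 0.12 SE within arrays. That difference separated the groups fully, but with 3 arrays against 3 the two-sided exact permutation test could give no p below 0.10, and it gave 0.10 (0.15 after Benjamini-Hochberg adjustment over 6 pairs). With the mean of the kept probes the difference was -0.20 and the groups overlapped (exact permutation p = 0.30).

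The group holds 12 genes for subunits of eIF3, the scaffold that joins the small ribosomal subunit and the mRNA. Of these, 9 were tested, 8 rose and 0 fell, where 31.0% of all items rose and 31.4% fell. The rises were unequal, from 1.23-fold to 3.20-fold. Eif3d, which in human cells can bind the cap of some mRNAs, led at 3.20-fold. It read 12.62, 12.27 and 12.31 in Tuni livers, against 10.71, 10.79 and 10.67 in Ctrl livers (log2 fold change 1.68 ± 0.12 SE, adjusted p = 1.17e-06). All 3 Tuni arrays exceeded the highest Ctrl array by over 1 log2 unit. The core subunits Eif3c, Eif3b and Eif3a, on which the complex is built, rose 2.59-fold, 2.53-fold and 2.14-fold. Eif3a read 8.90, 9.09 and 8.90 in Tuni livers, against 8.10, 7.90 and 7.60 in Ctrl livers, with no overlap, and the adjusted p-values of the 3 were 7.69e-06, 5.63e-06 and 6.87e-05. Eif3f, which has a domain like those of proteasome lid subunits, rose 1.70-fold and Eif3i, a subunit with WD repeats, 1.38-fold, and every kept probe of both rose. Eif3k and Eif3l are partner subunits at the edge of the complex. Eif3k read 7.03, 7.43 and 7.52 in Tuni livers, against 6.51, 6.95 and 7.11 in Ctrl livers, and the groups overlapped, although the gene passed the threshold (log2 fold change 0.47 ± 0.18 SE, adjusted p = 0.0405). Its dimmer probe gave 0.70. Eif3l had a log2 fold change of 0.30 ± 0.11 SE (adjusted p = 0.0368), and its second probe gave 0.20 and was not called. Each of these calls ended in 7 of 16 alternative settings, with adjusted p-values of up to 0.164 for Eif3k and 0.226 for Eif3l. The value of Eif3k was 0.28 without background correction. Eif3k was not called without Tuni replicate 2 or 3 or Ctrl replicate 1 or 2, with values of 0.42, 0.37, 0.30 and 0.52. Eif3l was not called without Tuni replicate 1 or 3 or Ctrl replicate 1 or 2, with values of 0.30, 0.25, 0.26 and 0.26. Eif3i had an adjusted p of 0.118 when each array was scaled by its median. Eif3j1, a loosely attached subunit, was dim and not called (log2 fold change 0.22 ± 0.11 SE, adjusted p = 0.104). The change of Eif3a exceeded that of Eif3k by 0.62 ± 0.35 SE within arrays, which did not separate the groups (exact permutation p = 0.20, adjusted 0.24). Without background correction this difference was 0.58 and the groups did not overlap (exact permutation p = 0.10). It was 0.36 without Ctrl replicate 3.

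The eIF4 genes showed 8 rises and 0 falls among 10 tested members, where 31.0% of all items rose and 31.4% fell. Eif4a1, the main helicase, read 13.13, 13.11 and 13.11 in Tuni livers, against 11.54, 11.45 and 11.32 in Ctrl livers and rose 3.20-fold (log2 fold change 1.68 ± 0.10 SE, adjusted p = 4.46e-07). Both of its probes gave nearly the same change, 1.68 and 1.70. The Tuni arrays were nearly equal and lay far above the Ctrl arrays. Its close paralog Eif4a2 was not called. It read 12.04, 12.26 and 12.21 in Tuni livers, against 12.02, 12.01 and 12.12 in Ctrl livers, with overlapping groups (log2 fold change 0.12 ± 0.11 SE, 95% interval -0.12 to 0.36, adjusted p = 0.354). The probe next in brightness gave 0.071, and a dim probe gave 0.33 (adjusted p = 0.0483 over all kept probes). Probes may bind transcripts of both paralogs, which share much sequence. Within arrays the change of Eif4a1 exceeded that of Eif4a2 by 1.56 ± 0.12 SE. The 3 differences in Tuni livers all lay above the 3 in Ctrl livers (exact permutation p = 0.10, the smallest possible, and 0.15 adjusted over 6 pairs). Eif4a3, a helicase relative that sits in the exon junction complex rather than at the cap, rose 2.44-fold (adjusted p = 3.58e-06).

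The helicase cofactors Eif4b and Eif4h rose 2.04-fold and 1.37-fold. Their adjusted p-values were 3.41e-05 and 0.00241. Without background correction the log2 fold change of Eif4b was 0.43 in place of 1.03, and with 1 median per array Eif4h was not called (adjusted p = 0.0761). Eif4g2, a relative of the eIF4G scaffold that lacks the site for eIF4E, rose 2.08-fold. It read 9.85, 10.01 and 10.11 in Tuni livers, against 9.0, 8.89 and 8.92 in Ctrl livers, without overlap (adjusted p = 1.55e-05). The cap-binding protein gene Eif4e itself had a dim probe. It read 4.92, 4.87 and 5.11 in Tuni livers, against 4.40, 4.79 and 4.47 in Ctrl livers, with detection on 3 Tuni arrays and 1 Ctrl array. Its rise of 1.33-fold passed the threshold (adjusted p = 0.0196), but the call ended in 6 of 15 alternatives, with adjusted p-values of up to 0.0914. The log2 fold change of Eif4e was 0.41, but 0.10 without background correction, 0.18 with an offset of 50 and 0.67 in the second deposited table. Among the fits that ended the call were those without Tuni replicate 3 (0.34), Ctrl replicate 1 (0.33) or Ctrl replicate 3 (0.37). Eif4e2, a cap-binding relative that acts in repression, rose 1.57-fold (adjusted p = 9.27e-04), and each of its 3 probes rose. The changes of Eif4e and Eif4e2 differed by -0.24 ± 0.15 SE, with overlapping groups (exact permutation p = 0.30). This difference varied with the setting. It was 0.12 in the second deposited table, but -0.49 without background correction and -0.45 with an offset of 50, where the groups did not overlap (exact permutation p = 0.10 each). With the mean of the kept probes it was -0.23, also without overlap (exact permutation p = 0.10). It was -0.38 without Ctrl replicate 1 and -0.12 without Ctrl replicate 2. Another cap-binding relative, Eif4e3, was not called. It read 6.001, 6.10 and 5.99 in Tuni livers, against 7.19, 6.26 and 5.94 in Ctrl livers, with Ctrl replicate 1 far above the other Ctrl arrays (log2 fold change -0.43 ± 0.26 SE, adjusted p = 0.174). Without Ctrl replicate 3 its log2 fold change was -0.69 and passed the threshold (adjusted p = 0.0262), while without Ctrl replicate 1 it was -0.069. Eif4enif1, which carries eIF4E into the nucleus and to processing bodies, rose 2.03-fold (adjusted p = 1.58e-05).

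The eIF4E-binding proteins, which compete with eIF4G for eIF4E until mTORC1 phosphorylates them, went different ways. Eif4ebp1, a known ATF4 target in mouse pancreatic beta cells, read 11.003, 10.54 and 10.68 in Tuni livers, against 9.85, 9.88 and 9.86 in Ctrl livers. It rose 1.83-fold (log2 fold change 0.87 ± 0.13 SE, adjusted p = 2.04e-04). The groups did not overlap, and Tuni replicate 1 was highest. Eif4ebp2 was the 1 member of the 39 that fell. It read 7.16, 6.77 and 6.65 in Tuni livers, against 8.98, 8.92 and 9.22 in Ctrl livers, a 4.52-fold fall (log2 fold change -2.18 ± 0.15 SE, adjusted p = 8.57e-07). Every Tuni array lay more than 1 log2 unit below every Ctrl array, and 2.69% of all items tested had a log2 fold change as low or lower. The fall passed the threshold in 16 of 16 alternatives, at values of -2.33 to -1.57, the smallest without background correction. Eif4ebp3 was not called. It read 7.27, 7.57 and 7.26 in Tuni livers, against 6.41, 7.43 and 7.66 in Ctrl livers, where Ctrl replicate 1 was about 1 log2 unit below the other Ctrl arrays (log2 fold change 0.20 ± 0.27 SE, 95% interval -0.41 to 0.80, adjusted p = 0.555). Without Ctrl replicate 1 the log2 fold change of Eif4ebp3 was -0.18 and without Ctrl replicate 3 it was 0.44, again without a call. Within arrays the change of Eif4ebp1 exceeded that of Eif4ebp2 by 3.05 ± 0.12 SE and that of Eif4e by 0.46 ± 0.20 SE. Both differences separated the groups (exact permutation p = 0.10 each, 0.15 adjusted). The difference between Eif4ebp1 and Eif4e was 0.12 in the second deposited table, where the groups overlapped (exact permutation p = 0.70). It was 0.31 without Tuni replicate 1, and 0.72 without background correction. Each of the 3 binding-protein genes was read by 1 probe.

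**Figure D3:**
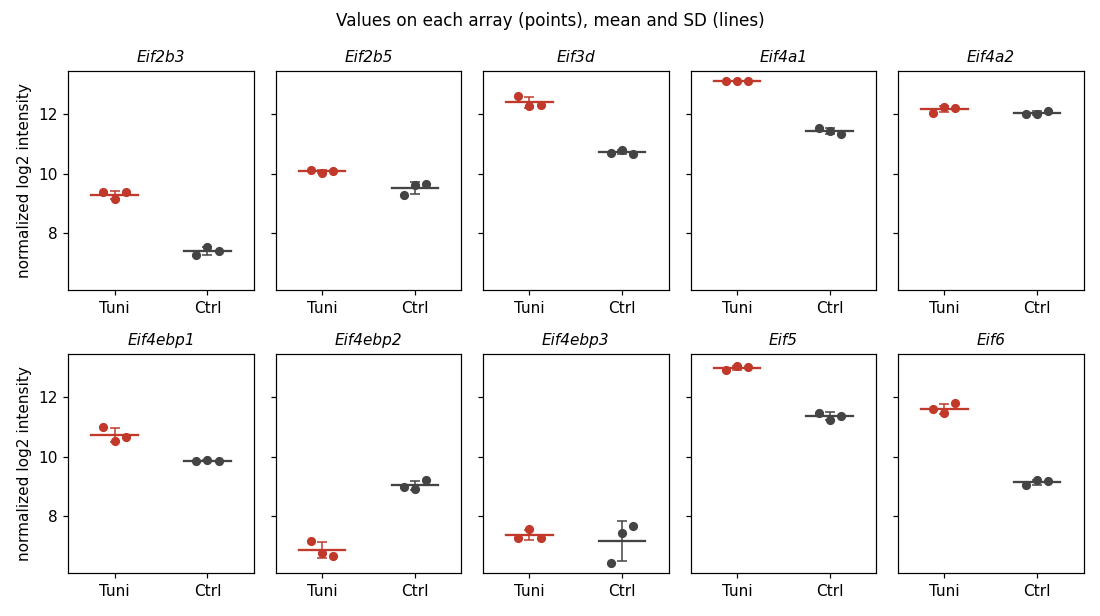
Normalized log2 intensity on each array for 10 initiation factors, 3 Tuni arrays left and 3 Ctrl arrays right in each panel, with the mean and SD. Eif4a2 overlaps between the groups while Eif4a1 does not, and Eif4ebp2 is lower in Tuni livers while Eif4ebp1 is higher.

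Promoters were set beside these differences for the genes they turn on, from RefSeq sequence of the GRCm38.p6 build. Each line gives the 250 bases before the annotated start, 5′ to 3′ on the gene's strand. The first pair is the helicase paralogs, then follow the gene that fell, the most changed eIF3 subunit and the sole member with the ATF4-CHOP composite letters. Capitals mark matches, on either strand, to any of the motifs searched. The windows are chr11:69672424-69672673 (Eif4a1, minus strand), chr16:23107218-23107467 (Eif4a2, plus), chr10:61452670-61452919 (Eif4ebp2, minus), chr15:77970825-77971074 (Eif3d, minus) and chrX:94212652-94212901 (Eif2s3x, minus).
Eif4a1: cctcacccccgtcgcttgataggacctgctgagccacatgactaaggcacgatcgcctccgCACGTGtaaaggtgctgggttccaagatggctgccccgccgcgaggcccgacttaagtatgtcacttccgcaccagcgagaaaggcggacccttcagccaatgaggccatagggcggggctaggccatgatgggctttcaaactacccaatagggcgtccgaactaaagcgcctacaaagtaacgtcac
Eif4a2: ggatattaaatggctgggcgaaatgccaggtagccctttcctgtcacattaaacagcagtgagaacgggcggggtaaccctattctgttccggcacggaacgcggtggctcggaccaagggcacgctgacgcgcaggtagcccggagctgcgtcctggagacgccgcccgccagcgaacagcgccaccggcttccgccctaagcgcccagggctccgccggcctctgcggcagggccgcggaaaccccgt
Eif4ebp2: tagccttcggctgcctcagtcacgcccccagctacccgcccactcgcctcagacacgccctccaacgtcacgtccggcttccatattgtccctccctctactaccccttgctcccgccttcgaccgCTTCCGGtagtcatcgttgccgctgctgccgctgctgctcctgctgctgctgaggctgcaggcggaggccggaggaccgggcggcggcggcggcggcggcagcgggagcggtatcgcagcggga
Eif3d: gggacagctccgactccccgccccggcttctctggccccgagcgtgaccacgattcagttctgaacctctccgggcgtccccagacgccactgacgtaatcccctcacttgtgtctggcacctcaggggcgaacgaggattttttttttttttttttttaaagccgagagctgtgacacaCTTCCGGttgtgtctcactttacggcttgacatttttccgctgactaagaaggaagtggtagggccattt
Eif2s3x: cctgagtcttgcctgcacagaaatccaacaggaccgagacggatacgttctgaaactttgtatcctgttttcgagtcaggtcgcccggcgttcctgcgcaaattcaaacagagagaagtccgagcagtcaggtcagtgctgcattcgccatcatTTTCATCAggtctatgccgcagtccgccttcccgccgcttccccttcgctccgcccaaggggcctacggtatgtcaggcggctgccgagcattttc

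Of the 47 members, 35 had a promoter entry, and 7 motifs were searched on both strands over every annotated start of a gene. The palindrome CACGTG, an E-box, was found in 8 of the 35 (22.9%), against 6.86% of 27025 genes. These were Eif1b, Eif3f, Eif3k, Eif4a1, Eif4e, Eif4h, Eif5a and Eif5a2, of which the first 7 rose and Eif5a2 was not tested. Of all 39 tested members 32 rose. The calls of Eif3k, Eif4e and Eif4h ended in some alternative settings. In Eif4a1 the E-box began 189 bases before the start, and the Eif4a2 window above holds none of the motifs. CCGGAAG, the core bound by ETS factors, was in 11 of the 35 (31.4%), against 7.83% of all genes, among them Eif4ebp2 and Eif3d. Its other form, CCGGAAA, was in 5 (14.3% against 3.29%). TGATGNAA, the letters of the composite site bound by ATF4 and CHOP, was in 1, Eif2s3x (2.86% against 3.91%), and it began 96 bases before the start. TGACGTCA, TGACGCAA and the ER stress response element (CCAAT and CCACG with 9 bases between) were found in 0 of the 35, against 1.77%, 0.507% and 0.13% of all genes. The members' windows were richer in G and C, with a median of 62.8% against 52.4% over all genes, and CACGTG and CCGGAA hold mostly these letters. A C at the annotated start followed by 4 pyrimidines, as in mRNAs controlled through mTORC1, was found in Eif3f and Eif2s3x, or 5.71% of the 35, against 3.01% of all genes. The matches describe these windows and do not show binding.

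Factors outside these complexes held the largest rise. Eif6, which binds the large ribosomal subunit and keeps it from joining the small one, rose 5.58-fold. It read 11.60, 11.47 and 11.80 in Tuni livers, against 9.05, 9.21 and 9.18 in Ctrl livers (log2 fold change 2.48 ± 0.12 SE, adjusted p = 8.18e-08), a gap of over 2 log2 units between the groups. The second kept probe of Eif6 was dim and gave 0.14 (adjusted p = 0.465 over all kept probes), and the mean of both gave a log2 fold change of 1.31. The size of the rise therefore depends on the probe. Eif5, the GTPase activator of eIF2, read 12.92, 13.05 and 13.03 in Tuni livers, against 11.49, 11.24 and 11.39 in Ctrl livers. It rose 3.09-fold, and its 3 probes agreed at 1.45 to 1.72 (adjusted p = 7.14e-07). Eif1a, a scanning factor, rose 3.62-fold. It read 10.88, 10.88 and 10.96 in Tuni livers, against 9.24, 9.12 and 8.79 in Ctrl livers (adjusted p = 9.31e-07), although its close relative Eif1ax may bind the same probe. Eif1ad, which shares the eIF1A fold, rose 3.06-fold, with 3 of 3 probes risen, and Eif1b, a relative of the start codon factor eIF1, rose 1.34-fold (adjusted p = 0.00688).

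Both single-chain factors that can deliver initiator tRNA without eIF2 rose. Eif2a, no subunit of eIF2 despite its name, read 11.03, 10.86 and 10.96 in Tuni livers, against 9.99, 9.96 and 9.89 in Ctrl livers (2.003-fold, adjusted p = 1.42e-05). Eif2d rose 1.57-fold (adjusted p = 2.65e-04). Eif5a, whose hypusine residue helps ribosomes through difficult stretches, rose 1.77-fold (adjusted p = 1.10e-04), and its 3 probes gave log2 fold changes of 0.44, 0.80 and 0.83. Eif5b, the GTPase of subunit joining, was not called. It read 4.69, 4.76 and 4.39 in Tuni livers, against 4.90, 4.87 and 4.90 in Ctrl livers, with the Tuni arrays below the Ctrl arrays (log2 fold change -0.28 ± 0.12 SE, adjusted p = 0.0676), and it passed the threshold without Tuni replicate 2 (-0.35, adjusted p = 0.0472). Its probe was dim throughout.

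Kept probes of the same gene mostly gave the same direction. Of 19 tested members with several kept probes, all kept probes were called in 1 direction for 15. For 3 of the 19 the fold changes of the kept probes differed by more than 1.5-fold. These were Eif1ad (log2 fold changes of 1.48 to 2.12), Eif3c (0.70 to 1.37) and Eif6 (0.14 to 2.48).

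Genes that act on or beside the initiation factors were taken from 6 lists. Of 72 genes listed, 62 were tested, 41 rose and 6 fell, where 31.0% of all items rose and 31.4% fell. These shares are the background for each list below, and a list called at about 62.5% does not stand apart by its number of calls. Among 11 tested genes of the eIF2 kinases and the phosphatase that reverses them, 6 rose and 2 fell, with a median log2 fold change of 0.80. The 8 calls of 11 are near the share over all items. Ppp1r15a, which encodes the stress-induced phosphatase subunit GADD34, read 9.01, 9.10 and 9.004 in Tuni livers, against 6.26, 6.57 and 6.38 in Ctrl livers. It rose 6.22-fold (adjusted p = 4.72e-08). Its constitutive counterpart Ppp1r15b had a log2 fold change of 0.12 ± 0.11 SE and was not called (adjusted p = 0.383). Dnajc3, which encodes p58IPK, an ER co-chaperone first known as a kinase inhibitor, rose 9.99-fold. Nck1, an adaptor that brings phosphatase to eIF2, rose 2.04-fold. Of the phosphatase catalytic subunits, Ppp1cb rose 2.13-fold and Ppp1ca fell 1.78-fold. The 4 kept probes of Ppp1ca gave log2 fold changes of -0.83 to -0.25. The kinases differed. Eif2ak3, which encodes PERK, read 6.02, 5.94 and 5.79 in Tuni livers, against 4.85, 5.15 and 4.84 in Ctrl livers and rose 1.96-fold (adjusted p = 6.81e-05). Eif2ak2, which encodes the double-stranded RNA kinase PKR, fell 1.503-fold (adjusted p = 0.0114). Eif2ak1, the haem-regulated kinase, was not called (log2 fold change -0.15 ± 0.10 SE, adjusted p = 0.228), and the probe of Eif2ak4, which encodes GCN2, was detected on 0 of 6 arrays.

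Of 6 tested genes that assemble eIF2 or mimic eIF5, or recycle ribosomes, 5 rose and 0 fell, with a median of 1.14. Bzw2, a mimic of eIF5, rose 4.28-fold and its relative Bzw1 2.05-fold, although the 2 kept probes of Bzw1 gave log2 fold changes of 0.35 and 1.03. Abcf1, which binds eIF2, rose 2.58-fold and Denr, a reinitiation factor, 2.39-fold. Of 10 tested partners of the mRNA ends, 7 rose and 1 fell (median 0.70). Paip2b, an inhibitor of poly(A)-binding protein, rose 5.10-fold, and Pabpc4, a poly(A)-binding protein, rose 4.88-fold, although log2 fold changes of its 3 probes spanned 0.41 to 2.41. Ncbp1, of the nuclear cap-binding complex, rose 2.45-fold and the helicase Dhx29, which helps scanning, 2.02-fold, whereas the helicase Dhx36 fell 1.28-fold. The other kept probe of Dhx29 gave a log2 fold change of 0.18, against 1.01. Of 12 tested elongation and release factors, 11 rose and 0 fell (median 0.96). Eef1e1, which sits in the tRNA synthetase complex, rose 4.06-fold, Abcf2 2.73-fold, the release factor Etf1 2.51-fold and Eef2k, the kinase that inhibits eEF2, 2.25-fold. Eef1a1, the main carrier of aminoacyl-tRNA, rose 1.20-fold (adjusted p = 0.0370). Eef2, the translocation factor, read 10.01, 9.78 and 9.66 in Tuni livers, against 9.21, 10.02 and 10.24 in Ctrl livers and was not called (adjusted p = 0.988).

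Of 17 tested controllers of mTORC1 and eIF4E, 6 rose and 3 fell, and the median was 0.072. The 9 calls of 17 are no larger a share than the 62.5% called over all items. Mknk1, a kinase that phosphorylates eIF4E, read 11.18, 11.19 and 10.97 in Tuni livers, against 7.81, 7.65 and 7.71 in Ctrl livers and rose 10.5-fold (log2 fold change 3.39 ± 0.11 SE, adjusted p = 8.83e-09). Of the genes that restrain mTORC1, Ddit4 rose 2.53-fold and Sesn2 2.30-fold, while Sesn1 fell 3.41-fold, Deptor 2.21-fold and Tsc2 1.36-fold. Deptor fell by its brightest probe, and its other kept probe gave -0.14. Rheb, the GTPase that activates mTORC1, rose 2.33-fold. In the list of 6 stress response genes all 6 rose, with a median of 4.18. Atf4, whose translation rises when eIF2 is phosphorylated, rose 3.69-fold at the transcript level (adjusted p = 6.97e-07), and Ddit3, which encodes CHOP, had a log2 fold change of 8.11 ± 0.10 SE (adjusted p = 3.97e-11).

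**Figure D4:**
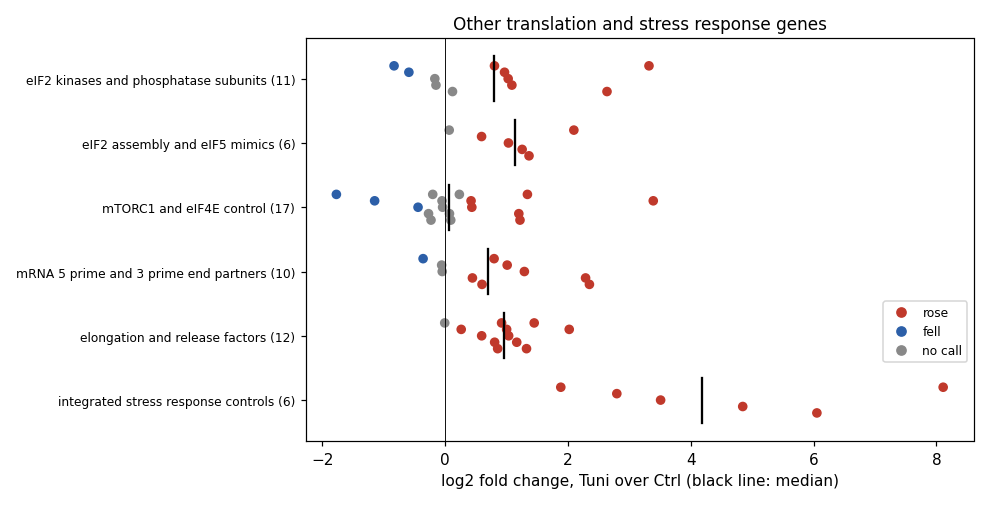
Log2 fold change, Tuni over Ctrl, of the tested genes of 6 lists of other translation and stress response genes, with the number tested in brackets and the median as a black line. Genes of elongation and release lie right of 0 in 11 of 12 cases, whereas the mTORC1 and eIF4E controllers spread to both sides of 0.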

How the data were processed

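Liver RNA of 6 arrays (3 Tuni, 3 Ctrl) was labelled as biotin cRNA, per the labels' protocols. The authors deposited linear bead intensity values for 45281 probes without normalization, with a detection p-value per probe and array, per the file headers. They also deposited a second table, whose intensity values are background-subtracted and share 1 distribution across arrays, as the values show. No genome build is given in the sources used here.

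The intensities were background-corrected from the detection p-values (limma 3.58.1 nec, R 4.3.3), raised by an offset of 16, quantile-normalized and converted to log2. Quantile normalization gives every array the same distribution, so a change is relative to the other transcripts. Fold changes of dim probes are understated by the offset. Gene names came from the platform annotation, in which 34885 probes have 1 symbol, 18 several and 10378 none. A gene was read by the probe with the highest mean raw signal, and kept where the detection p was under 0.05 on at least 3 of 6 arrays. Tuni was compared with Ctrl with limma (lmFit, then eBayes). P-values were adjusted by Benjamini-Hochberg over all 11674 items, with a threshold of 0.05, after a test on simulated data. All adjusted p-values are from that fit unless a permutation test is named. Of 12 listed gene pairs, 6 had both genes tested. Arrays carry no counts, so their number (3 per group) and the dim signal of some probes limit the precision. On each array 15503 to 16603 probes were detected, and the median raw signal was 88.9 to 96.8.

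Every initiation factor could be named. From the other lists the rule was up to 4 of the largest rises and falls past the threshold, plus the eIF2 kinases and a few fixed genes. Members and lists were chosen with earlier results of these data known. Background correction, scaling, offset, detection filter, probe choice, variance model, the second deposited table, each array left out and a block were tried as alternatives.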

Additional observations from a re-analysis of the deposited data

How the results depend on the processing

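Of the 33 called members, 28 kept their call in every alternative that gave a value, of 16 run, and the other 5 were Eif3i, Eif3k, Eif3l, Eif4e and Eif4h. Over the single members 598 values stayed called in the same direction or stayed uncalled. Another 22 lost the call, 2 gained one and 0 changed direction with a call. Eif2s3y and Eif4ebp3, which were not called in any setting, took either sign. The number of members that rose was 29 with 1 median per array and 29 to 31 with 1 array left out, against 32, and 1 to 2 fell with 1 array left out. Without background correction the median log2 fold change was 0.56 for eIF2, 0.74 for eIF2B, 0.52 for eIF4, 0.94 for the other factors and 0.66 for all members. With 1 median per array it was 0.84 for eIF2, 1.06 for eIF2B, 0.66 for eIF3, 0.93 for eIF4 and 0.92 for all members, and 3 rather than 6 of the other translation genes fell. With an offset of 50 it was 0.65 for eIF4 and 0.75 for all members. Without the detection filter it was 0.47 for eIF3, 0.55 for eIF4, 0.74 for the other factors and 0.65 for all members, and 23.3% of 29453 items were called, as undetected probes are then included. With detection on all 6 arrays it was 1.02 for eIF4, 1.31 for the other factors and 0.86 for all members. With the mean of the kept probes it was 0.68 for eIF3 and 0.79 for all members. The second deposited table gave 0.59 for eIF2, 0.79 for eIF2B, 0.90 for the other factors and 0.76 for all members, and the difference of Eif4e and Eif4e2 was 0.12. The causes were not tested. With 1 array left out, the medians ranged over 0.60 to 0.75 for eIF2, 0.69 to 0.84 for eIF3, 0.75 to 0.87 for eIF4, -0.18 to 0.44 for the eIF4E-binding proteins and 0.81 to 0.86 for all members. The deviations of same-numbered Tuni and Ctrl arrays from their group means correlated at r = 0.117, 0.0538 and 0.0034 across items. Differently numbered arrays gave r = -0.0981 to 0.0713. These values, from 3 arrays per group, cannot decide whether the numbers tie arrays to a shared source, and the labels do not say. With the replicate block 32 members rose and 1 fell, and over all items 3643 rose and 3679 fell.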

Other observations

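Some genes of related names or roles were looked at with the results above known, and their values were seen before they were chosen. Mammalian Argonaute genes once carried Eif2c names but do not act in initiation. Ago2 rose 2.05-fold (adjusted p = 8.40e-05), with its kept probes ranging over log2 fold changes of 0.34 to 1.04, and Ago3 rose 1.501-fold (adjusted p = 0.00394). Ago1 and Ago4 did not pass the detection filter. Of the mitochondrial initiation factors, Mtif2, which carries the initiator tRNA, read 7.20, 7.08 and 7.12 in Tuni livers, against 6.89, 6.58 and 6.40 in Ctrl livers and rose 1.42-fold (adjusted p = 0.00714). Mtif3, which acts on the mitochondrial small subunit, read 7.13, 7.19 and 7.27 in Tuni livers, against 7.26, 7.80 and 7.62 in Ctrl livers and fell 1.28-fold (adjusted p = 0.0478), with overlapping groups.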
